A study of Mus musculus with 24 samples.

Results

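Whole brains of 4-month-old mice labelled aSYN only were compared directly with whole brains labelled Hsp70 only. The comparison takes the 12 arrays titled with one of these genotypes, 6 per genotype, of the 24 arrays in the series. The abbreviation aSYN is not explained in the labels and is taken as alpha-synuclein, and they do not say whether either protein came from a transgene, of which species, under which promoter or in which strain. The other arrays carried both genotypes (aSYN/Hsp70, 6 arrays) or were wild type (wt, 6 arrays), also at 4 months of age, and they entered the fit and serve below as a scale. Every difference is aSYN minus Hsp70 on the log2 intensity scale, so a positive value is higher in aSYN brains. As neither genotype is a control for the other, a difference does not say which of the 2 groups departed from wild type, and means of the other groups are given for that reason.

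Alpha-synuclein is a small presynaptic protein that binds vesicle membranes and is the main component of Lewy bodies in Parkinson's disease. HSP70 proteins are chaperones that bind exposed hydrophobic stretches of unfolded proteins, refold them with HSP40 partners and nucleotide exchange factors, and hand others to the proteasome or the lysosome. Cells regulate the cytosolic chaperones and those of the endoplasmic reticulum (ER) by separate stress responses. Setting one genotype against the other asks where the transcripts of a brain with the aggregation-prone protein and of a brain with the chaperone differ.

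The deposited values of the 12 arrays had medians between 458 and 712 intensity units. Spearman correlations were 0.961 to 0.977 within aSYN, 0.924 to 0.977 within Hsp70 and 0.925 to 0.978 between the groups. Hsp70 replicates 3 and 6 stood apart, with limma quality weights of 0.251 and 0.332, and so did aSYN/Hsp70 replicates 3 and 4 (0.394 and 0.124). The median SD of a probe set was 0.225 in aSYN and 0.308 in Hsp70, and 0.201 in Hsp70 without those 2 replicates. By Xist and Y-linked probe sets, 4 of 6 aSYN and 3 of 6 Hsp70 samples were female. The 3' minus 5' signal of Actb, a measure of RNA integrity, averaged 0.547 ± 0.045 in aSYN and 0.436 ± 0.072 in Hsp70 (SD, n = 6; exact two-sided permutation p = 0.013, adjusted p = 0.0649 over 5 such tests), and the mean over 4 control transcripts averaged 0.972 ± 0.083 in aSYN and 0.923 ± 0.184 in Hsp70 (exact p = 0.561). With a sex covariate 124 of the 125 named probe sets kept the sign of their difference. The exception was Xist, from which the covariate was partly built. The part of RNA integrity in the differences below was not tested. No label states that each sample was a separate animal, and p-values therefore reflect the spread between samples, which may be technical.

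No single transcript passed the test between the 2 genotypes. Of 27022 probe sets, limma called 0 (0%) at an adjusted p under 0.05, and the smallest adjusted p was 0.339. At an unadjusted p under 0.05 there were 2375 probe sets (8.79%), where 1351 are expected by chance, 1162 higher (4.3%) and 1213 lower in aSYN (4.49%). The median size of a difference was 0.149 log2 units, and 211 probe sets differed by more than 1. The 95% interval of a difference had a median half-width of 0.372, so differences of about this size and smaller were not resolved for a typical probe set. All 6 aSYN arrays lay above all 6 Hsp70 arrays for 93 probe sets (0.344%) and below them for 111 (0.411%). None of the genes named below passed 0.05 after adjustment by limma, and their values describe these 12 arrays. For genes chosen by the smallest p, groups that hardly overlap follow from the choice.

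Among the 12 genes of smallest p with higher signal in aSYN brains, 2 are known for where in the brain they are expressed. Tac1 encodes the precursor of substance P, a peptide of striatal direct pathway neurons. Its only tested probe set had a lowest, median and highest value of 14.17, 14.24 and 14.45 in aSYN, against 13.62, 13.76 and 13.97 in Hsp70. The groups did not overlap, and the difference was 0.49 (SE 0.12, unadjusted p = 0.000427, limma adjusted p = 0.403). The means were 13.79 in aSYN/Hsp70 and 14.24 in wt, so the aSYN arrays were at the wt level and both groups with Hsp70 were below it. Rorb encodes a nuclear receptor used as a marker of the input layer of the neocortex, and it had values of 11.26, 11.79 and 11.97 in aSYN, against 10.21, 10.93 and 11.18 in Hsp70. These groups did not overlap either, with a difference of 0.85 (SE 0.18, unadjusted p = 8.87e-05, limma adjusted p = 0.339). The mean was 10.85 in aSYN/Hsp70 and 11.48 in wt. The other probe sets of Rorb differed by 0.79 (SE 0.44) and 0.30 (SE 0.27) in the same direction.

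The other higher genes had varied known roles. Hars2, the mitochondrial histidyl-tRNA synthetase, was higher by 1.14 (SE 0.28) and Qars, the glutaminyl-tRNA synthetase, by 0.33 (SE 0.08). Mrpl41, a protein of the mitochondrial ribosome, was higher by 0.65 (SE 0.17) and Dph5, an enzyme of diphthamide synthesis on elongation factor 2, by 0.40 (SE 0.10). Selenos, a selenoprotein of the ER membrane that takes part in the removal of misfolded proteins, had values of 11.96, 12.21 and 12.40 in aSYN, against 10.97, 11.68 and 11.82 in Hsp70. Its difference of 0.69 (SE 0.15) was 0.458 without the 4 arrays that stood apart. The remaining differences were 1.22 (SE 0.29) for Inca1, an inhibitor of cyclin-dependent kinase, 0.49 (SE 0.12) for the lysosomal protease Ctsz, 0.39 (SE 0.10) for the neuronal kinesin Kif5c, 0.38 (SE 0.09) for the mitochondrial Etfrf1 and 0.37 (SE 0.10) for Tspyl3. The size of the Inca1 difference rested in part on Hsp70 replicate 3 at 6.26, while the other Hsp70 arrays lay between 8.31 and 8.85. Without the 4 arrays that stood apart it was 0.833 (limma unadjusted p = 1.44e-05, not passing after adjustment).

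Brighter probe sets of the same genes did not always show these differences. The brightest differed by 0.07 for Selenos, by -0.14 for Qars, by 0.11 for Hars2 and by 0.07 for Kif5c. For Ctsz it differed by 0.25 (SE 0.16), and the one of middle brightness by -0.03 (SE 0.11), so that the difference given above was that of the dimmest of 3. For Kif5c another probe set was lower by 0.36 (SE 0.10, unadjusted p = 0.00132), opposite to the first. For Tac1, Etfrf1, Inca1, Dph5, Mrpl41 and Tspyl3 the probe set of smallest p was itself the brightest.

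Among the 12 genes of smallest p with lower signal in aSYN brains stood Ogt, which encodes the enzyme that attaches N-acetylglucosamine to nuclear and cytosolic proteins. Its values were 11.76, 12.09 and 12.29 in aSYN, against 12.28, 12.71 and 12.84 in Hsp70. Only the highest aSYN array and the lowest Hsp70 array crossed, and the difference was -0.58 (SE 0.11, unadjusted p = 3.97e-05, limma adjusted p = 0.339). The Ogt mean was 12.92 in aSYN/Hsp70 and 12.62 in wt, so only the aSYN arrays were low. All 5 tested probe sets of Ogt were lower in aSYN, by 0.14 to 0.58. The poorly annotated 2610005L07Rik had values of 6.88, 7.45 and 8.45 in aSYN, against 8.46, 9.08 and 9.27 in Hsp70, without overlap. It differed by -1.50 (SE 0.31) in its dimmest probe set and by -0.51 (SE 0.17) in its brightest, while 2 of its 7 probe sets differed in the other direction (0.32 and 0.17).

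Dclk1, a kinase that binds microtubules, had values of 12.48, 12.70 and 12.79 in aSYN, against 12.91, 13.09 and 13.17 in Hsp70, without overlap and with a difference of -0.38 (SE 0.08). Gja1, the gap junction protein of astrocytes, had values of 12.59, 12.71 and 12.83 in aSYN, against 12.89, 13.19 and 13.73 in Hsp70, a difference of -0.56 (SE 0.12). Dnajc6 encodes auxilin, the HSP40-type partner with which HSC70 strips clathrin from vesicles, and is a gene of juvenile parkinsonism. It had values of 12.52, 12.73 and 12.88 in aSYN, against 12.91, 13.11 and 13.20 in Hsp70, and differed by -0.37 (SE 0.08). The calcium pump Atp2b2 differed by -0.42, the PACAP receptor Adcyap1r1 by -0.56, the ubiquitin ligases Mycbp2 and Rnf13 by -0.66 and -0.41, the lipid enzymes Mboat2 and Hacd3 by -0.53 and -0.38, and C2cd5 by -0.61. For each of these 10 genes the arrays of the 2 groups did not overlap.

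Here too, brighter probe sets often did not share the difference. The brightest one differed by -0.004 (SE 0.096) for Dclk1, 0.04 (SE 0.09) for Gja1, -0.07 (SE 0.08) for Dnajc6, -0.07 (SE 0.08) for Atp2b2 and 0.11 (SE 0.08) for Mycbp2. It differed by -0.05 (SE 0.14) for C2cd5, -0.04 (SE 0.06) for Hacd3 and 0.12 (SE 0.11) for Rnf13. The brightest Adcyap1r1 probe set differed by -0.18 (SE 0.08). For Dclk1, Gja1, Dnajc6, Atp2b2, Mycbp2, C2cd5, Hacd3 and Rnf13 the brightest probe set thus gave no like difference, and which transcript ends or isoforms each probe set reads was not analysed here.

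**Figure D1:**
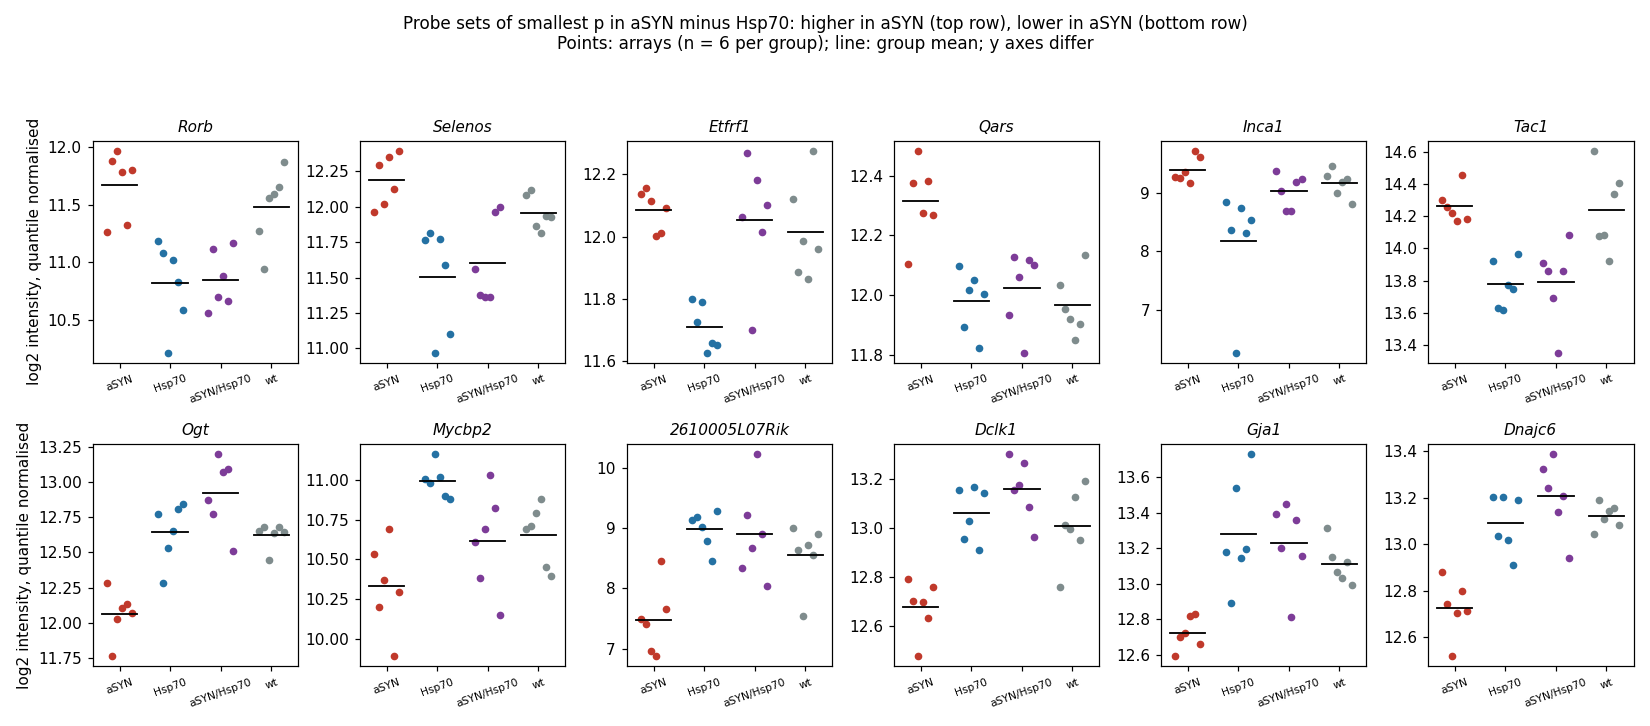
Log2 intensity (quantile normalised) of 12 probe sets by group, with 1 point per array (n = 6 per group) and a line at the group mean. The aSYN and Hsp70 points are apart in all panels except for Ogt, where 1 array of each group crosses. The y axes differ between panels and do not start at 0.

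Another description takes genes whose probe sets all differed in one direction. The probe sets of a gene were read from the same samples, so their agreement is not a repeat of the result. Of 6266 genes with at least 2 tested probe sets, 1411 had at least 1 at an unadjusted p under 0.05, and in 650 of these all probe sets had the same sign. In 27 genes, 2 probe sets with an unadjusted p under 0.05 had opposite signs. Every probe set had an unadjusted p under 0.05 in the same direction in 42 genes, 16 of them higher and 26 lower in aSYN. None of these probe sets passed after adjustment. The counts depend on quantile normalisation. With each array centred on its median instead, 1384 of all probe sets were higher and 302 lower at an unadjusted p under 0.05.

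The higher ones included Mrpl41 and Fabp5, a carrier of fatty acids. The 2 probe sets of Mrpl41 differed by 0.65 and 0.43. In the brighter one, the values were 14.17, 14.49 and 14.64 in aSYN, against 13.56, 13.69 and 14.19 in Hsp70, and the means were 13.99 in aSYN/Hsp70 and 13.75 in wt. The aSYN arrays thus lay highest of the 4 groups on average. Fabp5 differed by 0.38 (SE 0.13) and 0.36 (SE 0.10), and the second of its probe sets did not overlap between the groups. The adhesion protein Chl1 differed by 0.23 and 0.65, Coq10b, a binding protein of coenzyme Q, by 0.29 and 0.47, the ribosome assembly factor Rrs1 by 0.40 and 0.42, and the peroxiredoxin-like Prxl2a by 0.38 and 0.64. For Odf2l the differences of 1.22 and 1.39 had standard errors of 0.53 and 0.57. Several of these values rested in part on single arrays. Without the 4 arrays that stood apart, the differences of Prxl2a were 0.242 and 0.395, the first of Rrs1 was 0.251 (unadjusted p = 0.0629) and the first of Fabp5 was 0.237. In the same fit Odf2l differed by 0.863 and 0.548 (unadjusted p = 0.14 and 0.312), and Atrnl1 by 0.129 and 0.171, against 0.24 and 0.95 with all arrays. Without Hsp70 replicate 5 the larger difference of Chl1 was 0.422.

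Sort1 was among the lower genes of this kind. It encodes sortilin, a sorting receptor between the Golgi and endosomes. The 3 probe sets of Sort1 differed by -0.20, -0.24 and -0.41 in order of falling brightness. Without the 4 arrays that stood apart they differed by -0.1545, -0.203 and -0.3366 (limma unadjusted p = 0.0654, 0.0733 and 0.00321). Only the dimmest thus stayed under 0.05 in that fit. In the dimmest the values were 10.98, 11.06 and 11.13 in aSYN, against 11.21, 11.36 and 11.89 in Hsp70, without overlap. The mean there was 11.65 in aSYN/Hsp70 and 11.74 in wt. In the brightest the values were 14.44, 14.55 and 14.67 in aSYN, against 14.58, 14.73 and 14.94 in Hsp70, with overlap. Mapk8ip3, an adaptor of kinesin cargo in axons, differed by -0.30 in both probe sets. Clcn7, a chloride transporter of lysosomes, differed by -0.28 and -0.29, the first being -0.205 without the 4 arrays (limma unadjusted p = 0.0976). In at least 1 setting, each of the 8 lower genes named here except Cap1 had a probe set with an unadjusted p over 0.05. The largest such p of a gene ran from 0.328 for Mapk8ip3 to 0.781 for Serpini1 (limma).

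The membrane skeleton protein Add1 was lower in all 3 probe sets, by 0.25 to 0.35. Serpini1, the axonal protease inhibitor neuroserpin, differed by -0.21 and -0.36, and neither probe set overlapped between the groups. The cullin adaptor Kctd5 differed by -0.28 in both probe sets, and the calcium-binding S100a16 by -0.25 and -0.27, the first being -0.149 without the 4 arrays. The actin regulator Cap1 had the largest differences of the 8 lower genes, -1.20 (SE 0.44) and -1.26 (SE 0.44). Its brighter probe set had values of 11.60, 13.62 and 13.98 in aSYN, against 13.77, 14.54 and 14.65 in Hsp70, and 2 aSYN arrays, replicates 2 and 5, lay far below the others of their group. The lowest wt array stood at 11.67, so such low values were not particular to aSYN.

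**Figure D2:**
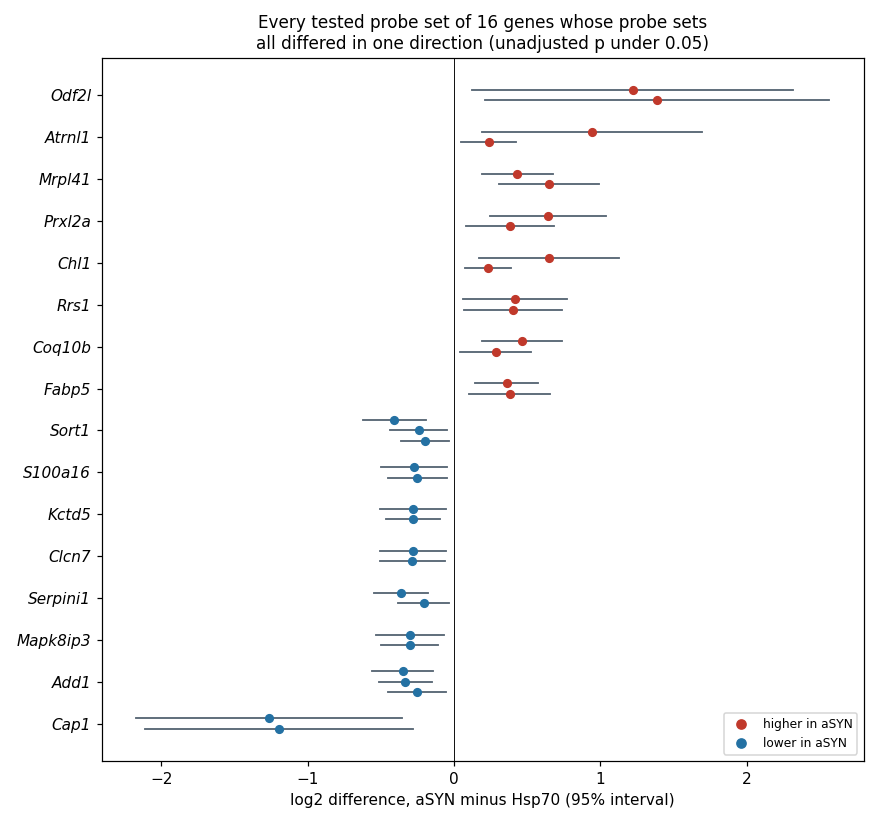
Difference (aSYN minus Hsp70, log2 units) with its 95% interval for every tested probe set of 16 genes whose probe sets all had an unadjusted p under 0.05 in one direction. Both or all 3 probe sets of a gene lie on the same side of 0 by the choice of the genes; the intervals are wide for Odf2l and Cap1.

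The mouse genes of inducible HSP70 did not separate the 2 genotypes. Hspa1a had values of 10.75, 11.15 and 11.28 in aSYN, against 10.15, 10.97 and 11.45 in Hsp70, a difference of 0.23 (SE 0.42, exact two-sided permutation p = 0.335). The 3 probe sets of Hspa1b differed by -0.51 (SE 0.41, exact permutation p = 0.281), -0.23 (SE 0.33, exact p = 0.491) and -0.19 (SE 0.35, exact p = 0.641). Hspa8, the constitutive HSC70, differed by 0.02, -0.15, 0.08 and 0.42 in order of falling brightness (SE 0.10, 0.08, 0.16 and 0.32). Probes designed on mouse transcripts may miss a transgene from another species, so these genes check neither label. The mouse gene of alpha-synuclein was not analysed here.

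Chaperones of the cytosol as a list lay on both sides of 0. Of 13 tested members of the HSP70 and HSP110 family, 7 were higher and 6 lower in aSYN, the median was 0.016, and 0 had an unadjusted p under 0.05, where 4.25% of the 12929 genes measured by their brightest probe set had one with higher and 4.29% with lower signal. Over all those genes the median difference was 0.0012, with 6499 higher and 6430 lower. The lists below were read from the brightest probe set of each gene, 0 of their members passed after adjustment, and with each array centred on its median in place of quantile normalisation the median of all genes was 0.13. Of 28 HSP40, HSP90 and co-chaperone genes, 14 were higher and 14 lower. Bag1, an exchange factor of HSP70, differed by 0.19 (SE 0.07) and St13, the HSP70-interacting protein Hip, by 0.21 (SE 0.09). Dnajc13, an endosomal HSP40 protein linked to parkinsonism, differed by -0.19 (SE 0.09). With limma, these 3 were the members with an unadjusted p under 0.05 (0.0133, 0.0272 and 0.0444). St13 without the 4 arrays differed by 0.122 (unadjusted p = 0.145) and Dnajc13 by -0.101 (unadjusted p = 0.282).

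**Figure D3:**
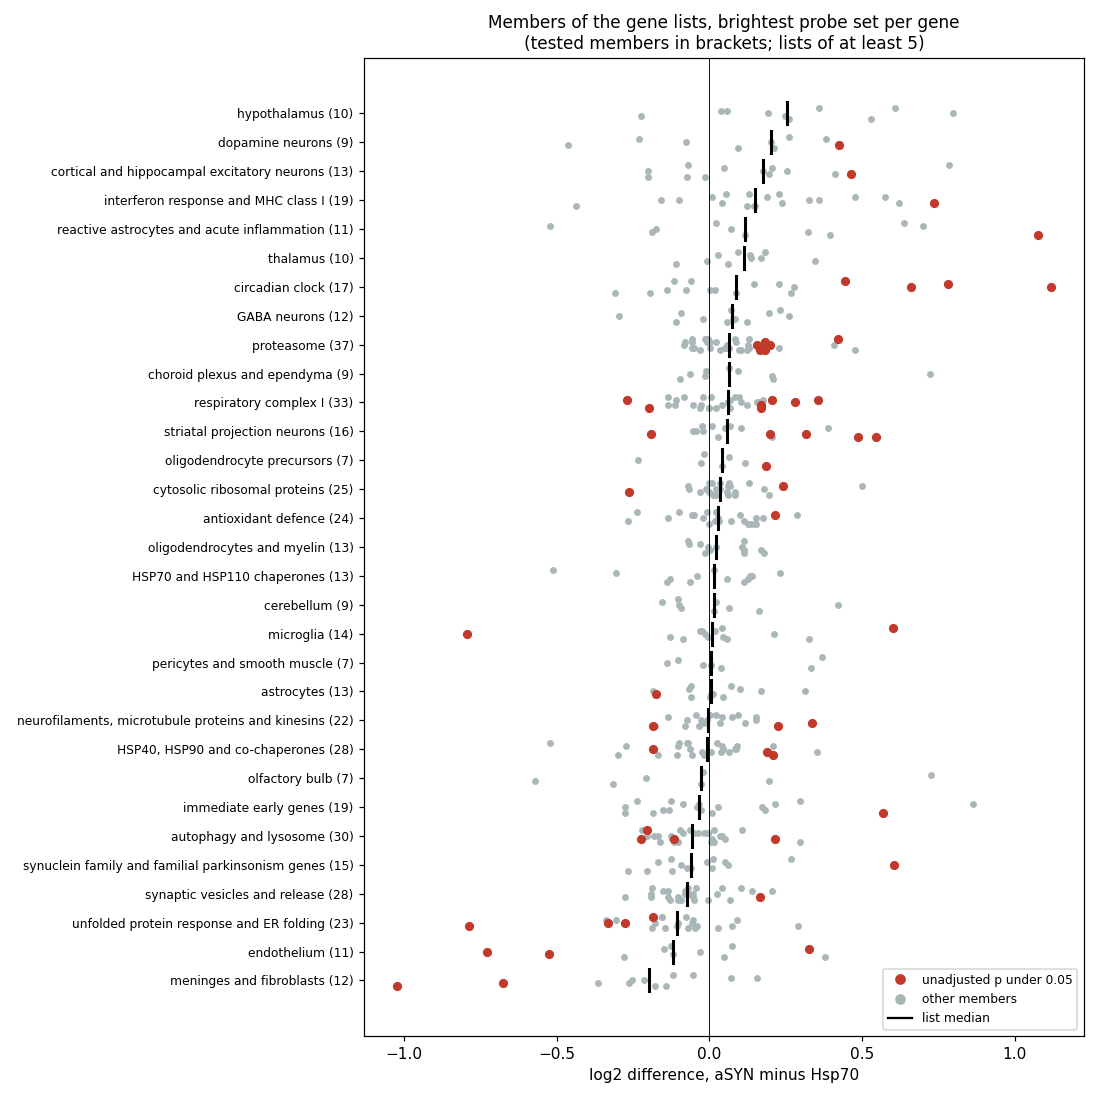
Difference (aSYN minus Hsp70, log2 units) of each tested member of 31 gene lists, on the brightest probe set of the gene. Black ticks are list medians and red points have an unadjusted p under 0.05. Most members of every list lie within 0.5 of 0.

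Most chaperones and enzymes of the ER were lower in aSYN by small amounts. The unfolded protein response is the programme by which cells raise ER folding capacity, through the sensors Atf6, Ern1 and Eif2ak3. Of its 23 tested genes, 19 were lower and 4 higher in aSYN, with a median of -0.10, and 4 were lower and 0 higher at an unadjusted p under 0.05, beside 4.29% and 4.25% over all genes. Relative to the median of all genes, 19 of 23 were also lower with median centring. Without the 4 arrays that stood apart 17 of 23 were lower, 2 of them at an unadjusted p under 0.05, and with each array left out in turn the median ran from -0.18 to -0.048, the last without Hsp70 replicate 6, and the count lower at an unadjusted p under 0.05 from 2 to 6.

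Pdia4, a disulfide isomerase of the ER, was lowest. Its values were 9.91, 10.40 and 10.98 in aSYN, against 10.67, 11.12 and 11.79 in Hsp70, a difference of -0.79 (SE 0.20, unadjusted p = 0.000823, limma adjusted p = 0.412). The highest aSYN array, replicate 4, was the one that overlapped the Hsp70 arrays. Dnajc3, an HSP40 partner of the ER chaperone BiP, had values of 11.25, 11.62 and 11.81 in aSYN, against 11.58, 11.89 and 12.31 in Hsp70, a difference of -0.33 (SE 0.12) that was -0.188 without the 4 arrays. The calcium-binding lectin chaperone Calr differed by -0.28 (SE 0.13), and Sel1l, the scaffold of ER-associated degradation, by -0.18 (SE 0.08). Hspa5, the HSP70 protein of the ER known as BiP, was named after its values were seen. It stood at 15.23, 15.53 and 15.99 in aSYN, against 15.37, 15.71 and 16.40 in Hsp70, a difference of -0.30 (SE 0.16, unadjusted p = 0.0689) that was -0.194 without Hsp70 replicate 6. The sensors, also named after their values were seen, differed by -0.04 for Atf6, -0.08 for Ern1 and -0.05 for Eif2ak3, with Xbp1 at -0.06 and Ddit3 at -0.07.

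Averaged over the 23 genes and set against the wt mean, the list stood between -0.22 and -0.17 in 5 aSYN arrays and at 0.157 in replicate 4. In Hsp70 arrays it ran from -0.239 to 0.291 with a median of -0.035. The spread was therefore wide in Hsp70 and the groups overlapped.

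Many ER chaperone genes carry the ER stress element in their promoters, a bipartite sequence that the factors NF-Y and ATF6 bind. CCAAT and CCACG with any 9 bases between them were searched on both strands of the 250 bases before each RefSeq gene start (assembly GRCm38.p6). They occurred in 8 of the 21 matched genes of the list (Calr, Canx, Creld2, Dnajc3, Hsp90b1, Hspa5, Pdia6 and Syvn1; 38.1%), against 0.13% of 27025 genes. The 8 genes with a match had a median difference of -0.17, with 6 lower and 2 higher in aSYN, and the 13 without one had a median of -0.075, with 11 lower and 2 higher, so most members were lower both with and without the letters. The element is shown in capitals, with 30 bases on either side, for the 2 genes with an unadjusted p under 0.05 that hold it and for Hspa5. The stretches lie at chr8:84847045-84847123 (minus strand) for Calr, chr2:34771995-34772073 (plus strand) for Hspa5 and chr14:118937797-118937875 (plus strand) for Dnajc3, each written 5' to 3' in the direction of the gene.
Calr: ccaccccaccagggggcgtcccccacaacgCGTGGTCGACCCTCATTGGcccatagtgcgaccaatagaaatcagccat
Hspa5: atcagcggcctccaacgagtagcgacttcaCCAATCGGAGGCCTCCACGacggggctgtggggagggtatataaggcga
Dnajc3: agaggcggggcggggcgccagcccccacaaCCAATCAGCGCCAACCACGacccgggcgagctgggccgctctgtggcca
In Calr the element runs on the opposite strand, so its 2 parts appear in reverse complement.

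Clock genes included some of the larger positive differences. The circadian clock is a loop in which Clock or Npas2 with Arntl (BMAL1) drive Per and Cry genes, whose proteins then repress them, and the same activators drive output genes such as Dbp and Ciart. Of 17 tested clock genes, 11 were higher and 6 lower in aSYN, with a median of 0.09, and 4 were higher and 0 lower at an unadjusted p under 0.05, beside 4.25% and 4.29% over all genes. No time of day at collection is given in the labels.

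The 4 were all repressors or targets of the activating pair, but their differences from wt were not alike. Against the wt mean, Ciart differed by 0.84 in aSYN and 0.05 in Hsp70, and Dbp by 0.53 and -0.14. Bhlhe41 differed by 0.11 in aSYN and -1.01 in Hsp70, and Per2 by 0.14 and -0.30. These pairs of values share the wt arrays. Ciart, a repressor of the loop, had values of 10.90, 11.55 and 11.99 in aSYN, against 10.22, 10.50 and 11.87 in Hsp70, a difference of 0.78 (SE 0.26, unadjusted p = 0.0057, limma adjusted p = 0.482). The Hsp70 value of 11.87 was replicate 3, one of the arrays that stood apart, and the other 5 lay at or below 10.66, so that all aSYN arrays were above those 5. Bhlhe41, another repressor, had values of 8.41, 9.33 and 9.87 in aSYN, against 6.23, 8.37 and 9.06 in Hsp70, a difference of 1.12 (SE 0.39) that was 0.515 without the 4 arrays. The output factor Dbp had values of 14.01, 14.88 and 15.06 in aSYN, against 13.58, 14.04 and 14.70 in Hsp70, a difference of 0.66 (SE 0.24), with a second probe set at 0.47 (SE 0.24). The core repressor Per2 differed by 0.44 (SE 0.21), while its dimmer probe sets differed by -0.23 and 0.35.

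Among the activators, named after their values were seen, Arntl differed by -0.31 (SE 0.15), Npas2 by -0.20 (SE 0.13) and Clock by -0.12, none at an unadjusted p under 0.05. Averaged over the 17 genes and set against the wt mean, the list stood between 0.032 and 0.272 in aSYN arrays. In Hsp70 arrays it stood between -0.211 and 0.0095, without overlap but close to the aSYN range. Of the 34 lists, chosen with earlier results of these data known, it was the only one without overlap. The arrays of aSYN/Hsp70 lay between -0.23 and 0.0843, and wt between -0.0784 and 0.0675. Without the 4 arrays that stood apart the median of the list was 0.043, with 10 higher and 7 lower and 2 in each direction at an unadjusted p under 0.05. Without Hsp70 replicate 3 alone the median was 0.17, and without aSYN replicate 2 it was 0.022.

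The activating pair binds the E-box CACGTG, which reads the same on both strands. It occurred within the 250 bases before the RefSeq start in 5 of the 15 matched clock genes (Bhlhe41, Ciart, Cry1, Per1 and Tef; 33.3%), against 6.86% of 27025 genes. The 5 had a median difference of 0.14, with 4 higher and 1 lower, and the 10 without it a median of 0.011, with 6 higher and 4 lower. The stretches around it are shown for the 2 genes that hold it and had an unadjusted p under 0.05, with the E-box in capitals. They lie at chr3:95882237-95882374 (minus strand) for Ciart, where the E-box starts at -116, -58 and -44 relative to the gene start, and at chr6:145865538-145865603 (minus strand) for Bhlhe41, where it starts at -153 (GRCm38.p6).
Ciart: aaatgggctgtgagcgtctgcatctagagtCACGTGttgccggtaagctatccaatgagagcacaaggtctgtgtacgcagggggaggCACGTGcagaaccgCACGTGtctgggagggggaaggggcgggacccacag
Bhlhe41: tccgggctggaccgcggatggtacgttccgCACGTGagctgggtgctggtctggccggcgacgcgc

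**Figure D4:**
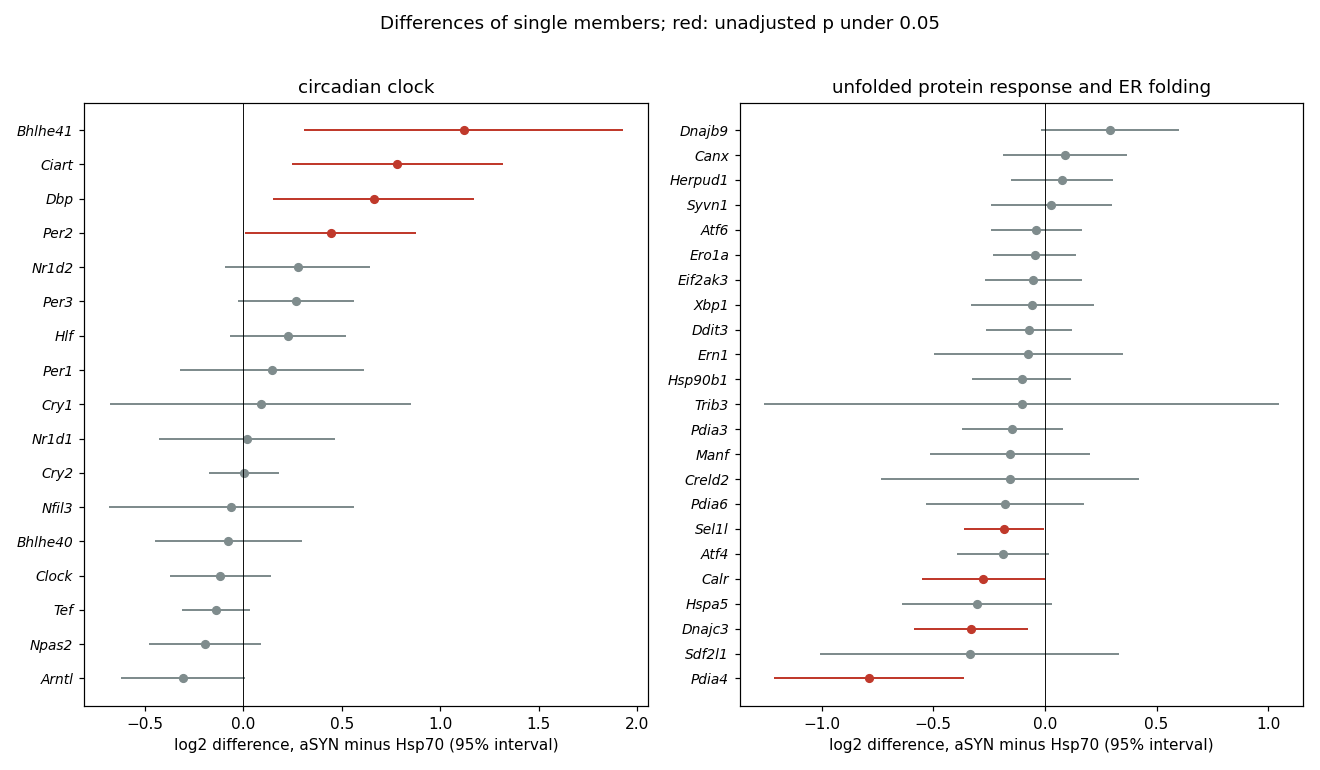
Difference (aSYN minus Hsp70, log2 units) with its 95% interval for each tested clock gene (left) and each tested gene of the unfolded protein response (right), with an unadjusted p under 0.05 in red. Of the clock genes, 4 lie above 0 with intervals that exclude it, and of the ER genes 4 lie below 0.

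The proteasome degrades proteins marked with ubiquitin, in a core of alpha and beta subunits capped by a regulatory particle with ATPases. Of 37 tested genes, 26 were higher and 11 lower, with a median of 0.07, and 6 were higher and 0 lower at an unadjusted p under 0.05, beside 4.25% and 4.29% over all genes. These were the core subunits Psma3, Psma5 and Psma6, the ATPases Psmc2 and Psmc6, and Psmd12 of the lid. Psma5 had values of 14.56, 14.73 and 14.96 in aSYN, against 13.75, 14.38 and 14.65 in Hsp70, a difference of 0.42 (SE 0.12) that was 0.25 without the 4 arrays and 0.03 (SE 0.10) in its dimmer probe set. Psma6 ran from 15.11 to 15.22 in aSYN, against 14.76 to 15.11 in Hsp70, so that the groups met at 1 value, with a difference of 0.18 (SE 0.08) that was 0.112 without the 4 arrays. Psmc2 differed by 0.18 (SE 0.07) and Psmd12 by 0.16 (SE 0.06).

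The mean of the list per array stood between 0.0335 and 0.114 in aSYN, against -0.0729 and 0.0511 in Hsp70, all relative to wt. The highest Hsp70 array, replicate 3, lay above the lowest aSYN array, replicate 6, and no other pair of arrays crossed. Without the 4 arrays 32 of 37 genes were higher, and relative to the median of all genes 31 of 37 were so with median centring. With each array left out in turn the median ran from 0.038 to 0.11, the highest without Hsp70 replicate 3. The number higher at an unadjusted p under 0.05 then ran from 3, without aSYN replicate 3 or Hsp70 replicate 6, to 9, without Hsp70 replicate 1. Over all probe sets those fits held 923, 823 and 1574 higher at this level, against 1162 with all arrays. The difference from the wt mean had a median of 0.09 over these genes in aSYN and 0.005 in Hsp70, comparisons that share the wt arrays.

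**Figure D5:**
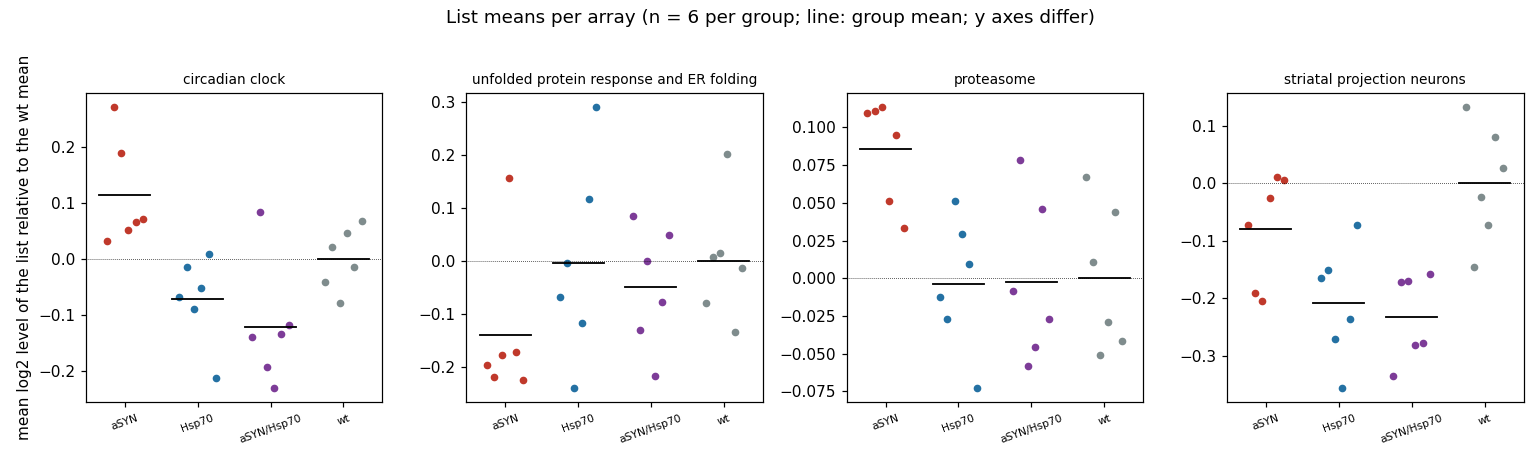
Mean log2 level of 4 gene lists in each array relative to the wt mean (n = 6 per group), with a line at the group mean. The aSYN and Hsp70 points do not overlap for clock genes, cross by 1 array of each group for proteasome genes and overlap for ER folding and striatal genes. The y axes differ between panels.

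Genes of striatal projection neurons differed in both directions. In whole-brain RNA, fewer cells of a type and less RNA per cell cannot be told apart. Of 16 tested genes, 11 were higher and 5 lower in aSYN, with a median of 0.06, and 4 were higher and 1 lower at an unadjusted p under 0.05, beside 4.25% and 4.29% over all genes. With each array left out in turn 2 to 5 were higher and 0 or 1 lower, 2 higher being the count without aSYN replicate 6 or Hsp70 replicate 3. Beside Tac1, the higher ones included the dopamine receptor Drd1, with values of 12.43, 12.53 and 12.86 in aSYN, against 12.09, 12.29 and 12.48 in Hsp70 and a difference of 0.32 (SE 0.10). A second probe set of Drd1 differed by 0.26 (SE 0.14). The orphan receptor Gpr6 differed by 0.54 (SE 0.24), or 0.335 without Hsp70 replicate 3, and the retinoic acid receptor Rarb by 0.20 (SE 0.09), or 0.106 without the 4 arrays. Pdyn, the dynorphin precursor, named after its values were seen, differed by 0.39 (SE 0.19, unadjusted p = 0.0525).

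Tac1, Drd1 and Pdyn mark the direct pathway, and Gpr6, Drd2 and Penk the indirect one. The last 2, named after their values were seen, differed by -0.05 for Drd2 and 0.01 for Penk, so the indirect markers named here differed unequally. Not every marker of either pathway on the list is given here. Pde10a, a phosphodiesterase of both pathways, was lower in aSYN (-0.19, SE 0.09). Its mean was lower than in wt in both genotypes, by 0.46 in aSYN and 0.27 in Hsp70, while Tac1 differed from wt by 0.03 in aSYN and -0.46 in Hsp70. These pairs of values share the wt arrays. Of the dopamine neuron list, 6 of 9 genes were higher and 3 lower (median 0.20, or 0.119 without aSYN replicate 3), and the vesicular monoamine transporter Slc18a2 differed by 0.42 (SE 0.18). It had values of 9.87, 10.07 and 10.43 in aSYN, against 9.34, 9.61 and 10.10 in Hsp70.

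Respiratory complex I, the first enzyme of the mitochondrial chain, had 33 tested genes, of which 20 were higher and 13 lower in aSYN (median 0.06). At an unadjusted p under 0.05 there were 5 higher and 2 lower, beside 4.25% and 4.29% over all genes. With each array left out in turn these counts ran from 2 to 6 higher, lowest without Hsp70 replicate 3 or 6, and from 0 to 3 lower. Ndufa13 differed by 0.36 (SE 0.14), Ndufa5 by 0.28 (SE 0.11), Ndufb10 by 0.21 (SE 0.07), and Ndufs7, a subunit that carries an iron-sulfur cluster, by -0.27 (SE 0.12). Without the 4 arrays Ndufa13 differed by 0.15, Ndufa5 by 0.163 and Ndufs7 by -0.121 (unadjusted p = 0.218). Of 15 genes of the synuclein family and familial parkinsonism, 6 were higher and 9 lower. Pink1, the kinase that marks damaged mitochondria, was the one with an unadjusted p under 0.05 (0.00799). Its values were 14.51, 14.92 and 15.06 in aSYN, against 13.57, 14.35 and 14.56 in Hsp70, with a difference of 0.60 (SE 0.21) and means of 14.20 in aSYN/Hsp70 and 14.24 in wt. The synuclein relatives Sncb and Sncg, named for their family, differed by -0.12 (SE 0.14) and -0.06 (SE 0.35).

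Autophagy and lysosome genes were lower in 20 of 30 cases (median -0.06). At an unadjusted p under 0.05, 1 was higher and 3 lower, beside 4.25% and 4.29% over all genes. Without the 4 arrays, 1 was higher and 0 lower. Those of the fit with all arrays were the lysosomal protease Ctsl (0.22, SE 0.08), Wipi2 (-0.20, SE 0.09) and Atg16l1 (-0.22, SE 0.10) of autophagosome formation, and the autophagosome protein Map1lc3b (-0.12, SE 0.05). Atg16l1 stood at 13.00 in Hsp70 replicate 6, and its difference was -0.117 without that array, while Wipi2 differed by -0.112 without the 4 arrays. Map1lc3b was 0.037 with median centring. Genes of synaptic vesicles were lower in 21 of 28 cases (median -0.07), and the one with an unadjusted p under 0.05 was higher, the vesicle protein Syp (0.16, SE 0.07), which differed by 0.0735 (unadjusted p = 0.287) without the 4 arrays. Without Hsp70 replicate 1, 5 vesicle genes were lower at an unadjusted p under 0.05. In that fit 1454 of 27022 probe sets were lower at this level, against 1213 with all arrays.

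Endothelial markers differed in both directions. Cldn5, the tight junction protein of the blood-brain barrier, had values of 12.08, 12.53 and 12.73 in aSYN, against 12.82, 13.15 and 13.64 in Hsp70, without overlap. The difference was -0.73 (SE 0.17, unadjusted p = 0.000236, limma adjusted p = 0.339), and the means were 13.17 in aSYN/Hsp70 and 12.91 in wt. The endothelial cadherin Cdh5 differed by -0.52 (SE 0.21), while the glucose transporter Slc2a1 differed by 0.33 (SE 0.10). Of 11 tested endothelial genes, 7 were lower and 4 higher (median -0.12, or -0.036 without Hsp70 replicate 3). The mean of the whole list relative to wt ran from -0.203 to 0.0287 in aSYN and from -0.146 to 0.112 in Hsp70, so that the defining markers did not move as one.

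Of 12 genes of meninges and fibroblasts, 10 were lower in aSYN (median -0.20, or -0.12 without Hsp70 replicate 3). At an unadjusted p under 0.05, 2 were lower and 0 higher, beside 4.29% and 4.25% over all genes. The organic anion transporter Slc22a6 had values of 6.73, 8.62 and 9.53 in aSYN, against 8.82, 9.51 and 10.22 in Hsp70, a difference of -1.02 (SE 0.38) that was -0.68 without aSYN replicate 3. The GABA transporter Slc6a13 differed by -0.68 (SE 0.30). The list mean relative to wt ran from -0.324 to -0.0287 in aSYN and from -0.341 to 0.268 in Hsp70, so the groups overlapped. The part of meningeal tissue in the other differences was not tested. Microglial genes lay on both sides, 7 higher and 7 lower, or 11 higher and 3 lower without the 4 arrays, with Laptm5 at 0.60 (SE 0.17; 0.375 without the 4 arrays) and Fcrls at -0.80 (SE 0.23). Of 19 genes of the interferon response and antigen presentation, 16 were higher in aSYN (median 0.15, or 0.0901 without Hsp70 replicate 1). At an unadjusted p under 0.05, 1 was higher and 0 lower, beside 4.25% and 4.29% over all genes. The 1 was the peptide transporter Tap1 (0.74, SE 0.35). Of the 19, 12 were higher without the 4 arrays, and Tap1 then differed by 0.482. Hypothalamic peptide genes were higher in 9 of 10 cases (median 0.25), 0 of them at an unadjusted p under 0.05. Without Hsp70 replicate 2 they were higher in 7 of 10 cases, with a median of 0.067.

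Myelin, astrocyte and precursor lists had medians near that of all genes. Of 13 oligodendrocyte and myelin genes 8 were higher and 5 lower (median 0.02). At an unadjusted p under 0.05 there were 0, beside 4.25% higher and 4.29% lower over all genes. Of 13 astrocyte genes 8 were higher and 5 lower (median 0.004), and the glutamate transporter Slc1a3 differed by -0.18 (SE 0.08). As for the tissue label, all 13 astrocyte genes, 13 of 14 myelin genes and 28 of 30 vesicle genes had a tested probe set, against 2 of 8 blood genes and 4 of 8 pituitary genes. Only 5 of the 8 blood genes and 7 of the 8 pituitary genes had a named probe set at all. Missing names as well as low signal thus left genes out.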

How the data were processed

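Whole-brain RNA was read on 24 Affymetrix arrays. Deposited was 1 linear intensity for each probe set, each array scaled by the authors to a mean of 2500 without the extreme probe sets, as the values show. The sources used here name no program that summarised the probes. Intensities plus 16 were put on the log2 scale and quantile normalised. The 64 control probe sets and the dimmest 40% (18015) were left out, and 27022 remained. The added 16 understates differences of dim probe sets. Names came from probe sets that carry 1 gene symbol (34958 of 45101; 932 had several and 9211 were unnamed), and 34754 of those matched a GRCm38.p6 gene table by gene ID.

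One limma 3.58.1 fit in R 4.3.3 held a mean for each of the 4 groups over 24 arrays, and p-values were Benjamini-Hochberg adjusted over all 27022 probe sets. Single values per array were compared by exact permutation over 924 splits, whose smallest p is 0.00216. The members and the 34 gene lists (590 genes, 509 tested) were chosen with earlier results of these data known. Genes named were, per direction, the 12 of smallest p, up to 8 whose probe sets all had an unadjusted p under 0.05, Hspa1a, Hspa1b, Hspa8 and Sort1, and up to 4 members per list under 0.05. Lists were described on the brightest probe set per gene with no test. The fit did not pair samples by replicate number. With the group mean of each probe set taken off, same-numbered aSYN and Hsp70 arrays correlated between -0.0571 and 0.0846. The fit was run on simulated data with independent noise and, for each probe set, the same spread in all arrays. The real arrays differ in spread, so the simulation checks the calculation only. Alternatives were other normalisation, offsets of 1 and 64, no dim filter, fewer arrays, a replicate block, array weights, a sex covariate, a robust variance and each array left out. The number of arrays limits the precision. Figures used matplotlib 3.10.9.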

Additional observations from a re-analysis of the deposited data

Results flagged for a closer look

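Among 252 sets of 6 values (named probe sets and list means in aSYN and in Hsp70), 16 held a sample far from the other 5, where about 12.6 are expected by chance. Of these, 6 were Hsp70 replicate 3, 4 were aSYN replicate 1 and 3 were Hsp70 replicate 6. In aSYN replicate 1 the 2 probe sets of Mapk8ip3 stood at 13.44 and 14.09 (next highest 13.12 and 13.80), Mapt at 15.40 and Clcn7 at 11.40, each the highest of its group. In aSYN replicate 5 Hspa1a was lowest at 10.75. In aSYN replicate 4 the mean of the unfolded protein response list was highest at 0.157, where the next was -0.172.

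In Hsp70 replicate 3, Ciart was highest at 11.87. In the same array Cd44 was lowest at 5.13 (next 9.05), Inca1 at 6.26 (next 8.31), the 2 probe sets of Prxl2a at 9.81 and 12.85, and Hspa8 at 16.61. In Hsp70 replicate 6, Kctd5 stood highest at 11.63, Mapt at 15.86 and Atg16l1 at 13.00. In Hsp70 replicate 2, Pink1 was lowest at 13.57 (next 14.24).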

How the results depend on the processing

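limma called 0 probe sets in each setting except 1 called without the 4 arrays that stood apart, D630023F18Rik, at 0.74 (SE 0.10, adjusted p = 0.0338), against 0.51 (SE 0.21, adjusted p = 0.524) with all arrays. With 1 array left out, 1710 to 3028 probe sets had an unadjusted p under 0.05 and the smallest adjusted p ran from 0.182 to 0.736. With the replicate number as a block, 0 passed. At an unadjusted p under 0.05, 1190 were then higher and 1164 lower, against 1162 and 1213. After the group mean of each probe set was taken off, no correlation of same-numbered arrays exceeded 0.1 and 1 of 6 was highest with its own number. The inferred sex was the same in aSYN and Hsp70 for every replicate number except 6. The labels do not say whether the numbers mark pairs. Of 125 named probe sets, 118 had the same sign in all 22 settings, but a kept sign was not a kept size. The differences of the brightest probe sets of Sort1 and Serpini1 shrank to -0.039 and -0.047 in 1 setting. Their unadjusted p reached 0.753 and 0.781 (limma).

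Median centring moved the median of all genes from 0.0012 to 0.13 and the higher share of probe sets at an unadjusted p under 0.05 from 48.9% to 82.1% (1384 higher, 302 lower). Non-overlapping probe sets then numbered 51 higher and 16 lower. List medians became 0.222 for GABA neurons, 0.14 for co-chaperones, 0.179 for antioxidant defence, 0.124 for astrocytes, 0.0641 for autophagy, 0.182 for clock genes, 0.134 for ribosomal proteins, 0.0329 for endothelium, 0.156 for microglia, 0.159 for neurofilaments and kinesins, 0.168 for myelin, 0.143 for pericytes, 0.222 for the proteasome, 0.207 for complex I, 0.219 for striatal neurons, 0.0719 for synaptic vesicles and 0.0876 for parkinsonism genes, most of which is that shift. Averaging all probe sets of a gene gave -0.015 for synaptic vesicles.

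Signs turned for Map1lc3b (0.037, median centring) and Hspa8 (-0.0576 with array weights and -0.0799 without the 4 arrays). Tcf7l2 (-0.0081 and -0.0576 in the same fits), Zic1 (-0.0766 without the 4 arrays) and Xist (-0.434, sex covariate) turned too. The sex covariate was itself built from Xist and Y-linked probe sets, so the Xist value of that fit is not a separate result. The cause of the other sign changes was not tested. With 1 array left out, 2 probe sets of Hspa8 ran from -0.0232 to 0.149 and from -0.0696 to 0.0592, the dimmest of Hspa1b from -0.454 to 0.0055, and the mean 3' minus 5' signal from -0.00142 to 0.0885. In the same way the median of clock genes ran from 0.0222 (without aSYN replicate 2) to 0.175 and that of the proteasome from 0.0377 (without Hsp70 replicate 2) to 0.107 (both highest without Hsp70 replicate 3).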
